A study of Mus musculus with 8 samples.

Results

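The genes described here belong to the ISG15 conjugation pathway and to the group around Parp9, which lies next to it among the interferon-stimulated genes. There are 10 members, chosen by name, of 28239 gene symbols in the count table: Isg15, Usp18, Ube2l6, Uba7, Herc6, Parp9, Dtx3l, Parp14, Isg20 and Bst2. All 10 were listed, and 9 passed the filter on low values (at least 2 CPM, the tags of a gene scaled to a common library size, in at least 4 libraries), which left 12700 genes for testing. Uba7 did not pass.

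The study asked how the lipoxygenase gene Alox15 bears on regulatory T cells (Tregs). Naive CD4+ T cells, isolated from mouse spleens by negative immunomagnetic selection, were cultured towards Tregs for 2 days with beads against CD3 and CD28, IL-2 at 100 U/ml and TGF-β at 5 ng/ml, and RNA was profiled by MACE-seq, which counts tags from the 3′ ends of transcripts. There were 4 libraries labelled Alox15-/- and 4 labelled WT (wild type), both on the C57BL/6 background, from mice aged 10 to 12 weeks of either sex. Both groups received the same culture conditions, and the mice of each group came from a different supplier, so that genotype and source cannot be told apart.

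Total counts ran from 3723151 to 6952596 in the Alox15-/- libraries and from 4810125 to 9538962 in the WT libraries. Alox15 itself was higher in the libraries labelled Alox15-/- (63.4 to 70.2 CPM) than in those labelled WT (1.87 to 8.98 CPM), with a log2 fold change of 3.65 (SE 0.299, adjusted p = 1.08e-05 by edgeR; this and all adjusted p-values of single genes come from its quasi-likelihood F-test and the Benjamini-Hochberg procedure over all tested genes). This rise is the opposite of a loss of Alox15, and whether the labels are right was not tested. The sources used here do not say which part of Alox15 is deleted. A 3′ tag outside the deleted part would check nothing, so every direction below rests on the labels. The 10 CD4 T cell and Treg markers were present in all libraries, with a summed level of 3095 to 3332 CPM in Alox15-/- and 3269 to 3461 CPM in WT, and none of them passed the test (sum, two-sided exact permutation p = 0.0571, adjusted p = 0.0898). Cd4 was lower in every Alox15-/- library (209 to 296 CPM) than in any WT library (326 to 350.1 CPM), with a log2 fold change of -0.32 (adjusted p = 0.358). Foxp3 lay at 71.4 to 112.9 CPM in Alox15-/- and 92.9 to 194.4 CPM in WT (log2 fold change -0.42, adjusted p = 0.655).

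Isg15 encodes a ubiquitin-like protein that interferons induce and that is attached to other proteins in a chain of steps: Uba7 activates it, Ube2l6 carries it, Herc6 is the main ligase that attaches it in the mouse, and Usp18 removes it. Parp9 and Dtx3l form a complex that joins an ADP-ribosyltransferase-like protein with a ubiquitin ligase, and Parp14 is a related ADP-ribosyltransferase coded beside them. Isg20 is an exonuclease that degrades RNA, and Bst2 (tetherin) holds budding viral particles at the cell membrane. Many interferon-induced genes carry the interferon-stimulated response element (ISRE) near their start, and some carry a different element, GAS.

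RefSeq start-site windows on GRCm38.p6 (250 bases before and 50 after each start) were at hand for 7 members, 9 windows in all. The ISRE core, searched on both strands as GAAA, any 2 bases and GAAA again, was in the windows of 2 members, Isg15 and Bst2, and in 3.44% of all 32851 windows of this length. The 250 bases before the start are shown for these 2, since one of them passed the test between the groups and the other did not. They are written 5′ to 3′ on the strand of the gene, with the ISRE core matches in capitals. The Isg15 stretch is chr4:156200819-156201068 on the minus strand and the Bst2 stretch is chr8:71537473-71537722 on the minus strand.
Isg15: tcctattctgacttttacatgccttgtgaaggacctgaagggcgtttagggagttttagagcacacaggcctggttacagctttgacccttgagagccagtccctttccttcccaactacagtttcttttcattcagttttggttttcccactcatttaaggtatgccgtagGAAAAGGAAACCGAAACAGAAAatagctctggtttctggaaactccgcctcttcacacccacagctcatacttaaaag
Bst2: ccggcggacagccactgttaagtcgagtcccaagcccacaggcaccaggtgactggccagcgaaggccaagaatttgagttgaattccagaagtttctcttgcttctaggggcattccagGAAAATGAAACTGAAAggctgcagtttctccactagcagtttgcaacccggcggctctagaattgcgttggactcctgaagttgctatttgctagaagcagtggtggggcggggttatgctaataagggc

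In the Isg15 stretch 3 overlapping matches were found, the first from 78 bases before the start, and in the Bst2 stretch 2, the first from 130 bases before it. The GAS letters TTCNNNGAA, searched on both strands and present in 8.30% of all windows, were found in Bst2 from 136 bases before the start, overlapping the first ISRE match, and in 1 window of Isg20 from 73 bases before the start. Neither run of letters was in the windows of Ube2l6, Herc6, Uba7 or Dtx3l. Usp18, Parp9 and Parp14 had no window.

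Of the 9 members tested, 4 passed the threshold (adjusted p under 0.05) and all 4 were higher in Alox15-/-: the modifier Isg15, its protease Usp18, its carrier Ube2l6 and the exonuclease Isg20, by 2.16-fold to 3.0-fold. Over all tested genes 1.24% passed in either direction and 1.05% were higher in Alox15-/-. The ligase Herc6 and the 3 genes of the chromosome 16 group, Parp9, Dtx3l and Parp14, did not pass, nor did Bst2. The median log2 fold change was 0.56 over the 9 members tested and -0.0073 over all tested genes, and 8 of the 9 had a fold change above 0. In 5 members (the 4 called and Bst2) every Alox15-/- library lay above every WT library, a separation seen in 2.75% of all tested genes. The members were chosen with earlier results of these data known, so these counts and shares are a description and no independent evidence. With 1 library left out in turn, the count of members called ran from 0 (without WT replicate 1) to 4.

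**Figure D1:**
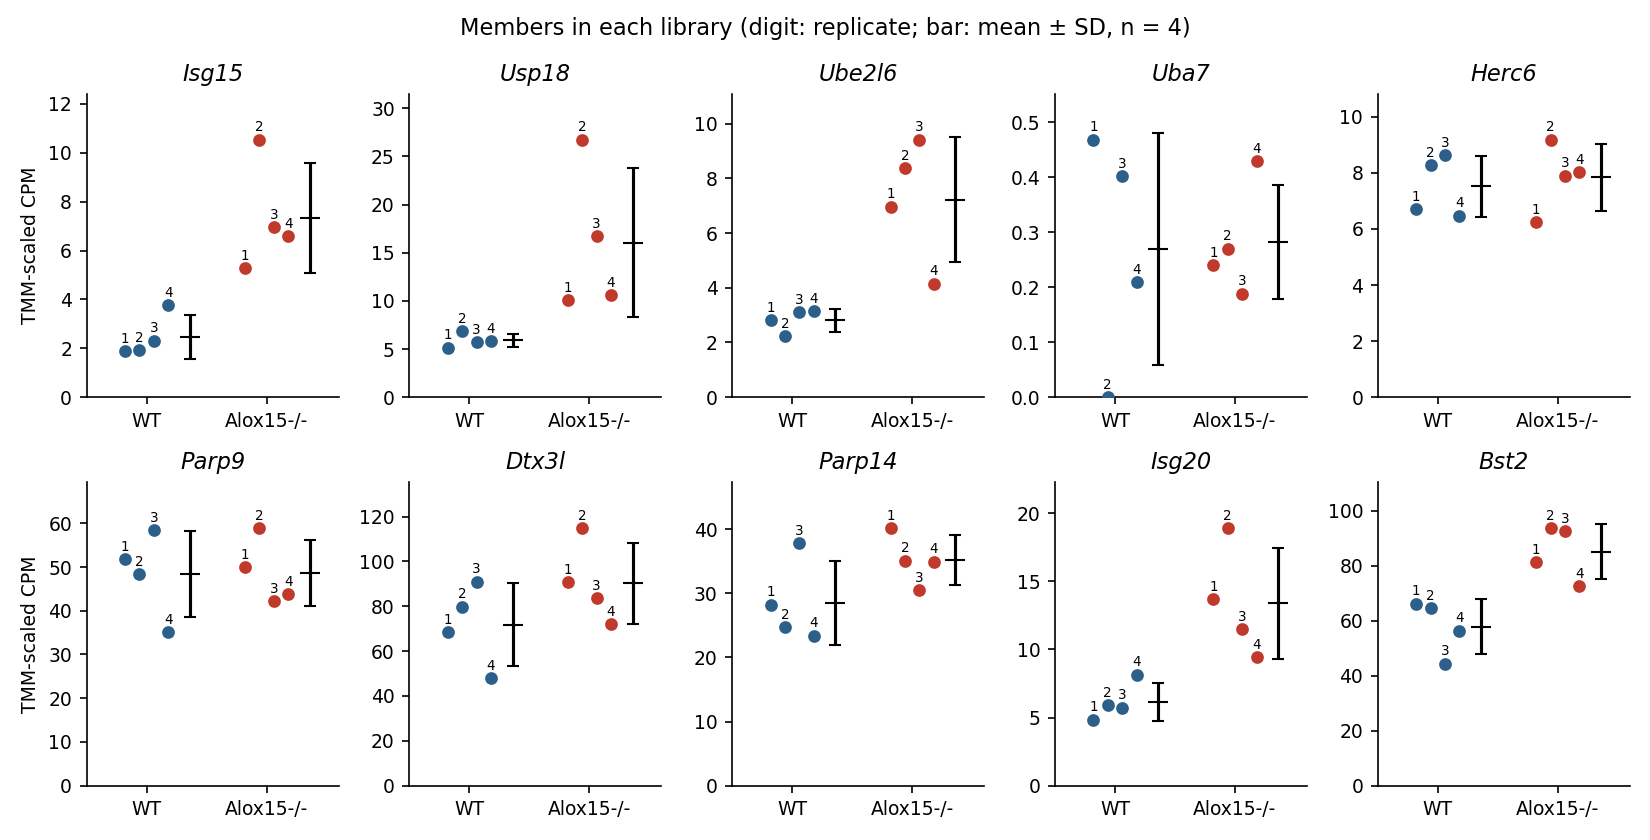
Level of each member in each library, in TMM-scaled CPM (vertical axis from 0, a different range for each gene), for 4 WT (blue) and 4 Alox15-/- (red) libraries, with the replicate number above each point and the mean ± SD beside each group. Isg15, Usp18, Ube2l6, Isg20 and Bst2 show all red points above all blue points, whereas Herc6, Parp9, Dtx3l and Parp14 overlap and Uba7 stays below 0.5 CPM.

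Isg15, the modifier itself (ENSMUSG00000035692.6, GRCm38 chromosome 4, 156199424 to 156200818, minus strand), was counted 22 to 46 times in the Alox15-/- libraries and 12 to 23 times in the WT libraries. Its level was 5.29, 10.5, 6.96 and 6.58 CPM in Alox15-/- replicates 1 to 4. In WT replicates 1 to 4 it was 1.87, 1.91, 2.31 and 3.76 CPM. Alox15-/- replicate 2 was the highest of all and WT replicate 4 the highest of its group, and the groups did not overlap. The means were 7.34 ± 2.24 and 2.46 ± 0.886 CPM (SD, n = 4 each), a 3.0-fold difference (log2 fold change 1.59, SE 0.297, 95% interval 0.95 to 2.22, adjusted p = 0.0112 by edgeR). Without WT replicate 1 the adjusted p was 0.0579 and without WT replicate 2 it was 0.0521, while without any other library it stayed under the threshold. With so few counts a library, the size of the fold is loosely set. The last 500 bases of Isg15 match AC151275.1 at 94.7% identity over 338 bases, a gene with no row in the count table.

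Usp18 (ENSMUSG00000030107.10, chromosome 6, 121245906 to 121270917, plus strand) takes ISG15 off its targets and also restrains signalling by the interferon receptor. It was measured at 10.1, 26.7, 16.7 and 10.6 CPM in Alox15-/- replicates 1 to 4. The WT replicates 1 to 4 had 5.15, 6.85, 5.72 and 5.85 CPM. The WT libraries lay close together and the Alox15-/- libraries, all higher, were spread widely, replicate 2 lying farthest from the WT group. The means of 16.0 ± 7.74 and 5.89 ± 0.709 CPM (SD, n = 4 each) differed 2.67-fold (log2 fold change 1.42, SE 0.280, adjusted p = 0.0166 by edgeR). The adjusted p rose to 0.0733 without Alox15-/- replicate 3 and to 0.0796 without WT replicate 1. Without Alox15-/- replicate 2, the highest library, the log2 fold change was 1.09 and the gene still passed (adjusted p = 0.0490). The antisense gene Gm44148 overlaps the 3′ end of Usp18 and had 3 to 16 counts in Alox15-/- and 7 to 32 in WT, and the sources used here do not say whether counting used strand, so the tags of such pairs cannot be told apart.

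Ube2l6 (ENSMUSG00000027078.14, chromosome 2, 84798828 to 84810335, plus strand), the conjugating enzyme that hands ISG15 to the ligase, had 6.97, 8.37, 9.41 and 4.15 CPM in Alox15-/- replicates 1 to 4. In WT replicates 1 to 4 the level was 2.81, 2.23, 3.11 and 3.13 CPM. Alox15-/- replicate 4 was nearest to the WT libraries but lay above all of them. The means were 7.22 ± 2.28 and 2.82 ± 0.420 CPM (SD, n = 4 each), 2.51-fold apart (log2 fold change 1.33, SE 0.287, adjusted p = 0.0299 by edgeR). This call was the least settled of the conjugation genes. Without Alox15-/- replicate 1, 2 or 3 the adjusted p was 0.0878, 0.115 and 0.168, and without WT replicate 1, 2 or 3 it was 0.107, 0.120 and 0.0613, whereas the log2 fold change stayed between 1.16 and 1.54 over all 8 fits that left out a library. It was also 0.0904 with limma-voom. The last 500 bases of Ube2l6 share stretches of 90.1% to 96.5% identity with 18 other genes, so some tags may be hard to place. Of these, 10 were listed and 5 tested, none passed, and their log2 fold changes ran from -0.26 to 0.49.

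Uba7, which activates ISG15 (ENSMUSG00000032596.14, chromosome 9, 107975505 to 107984060, plus strand), was at the limit of detection. Its counts were 1, 1, 1 and 3 in the Alox15-/- libraries and 3, 0, 4 and 1 in the WT libraries, 6 against 8 over each group. Since 3 counts in a library correspond to 0.301 to 0.81 CPM here, no fold is given. The readthrough gene Gm20661, on the same strand, covers the 3′ end of Uba7, with 98.6% identity over an aligned stretch of 208 bases. It had 68 to 107 counts in Alox15-/- and 69 to 187 in WT, with a log2 fold change of 0.21 (adjusted p = 0.844), and tags of Uba7 could have been counted under that name.

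Herc6 (ENSMUSG00000029798.11, chromosome 6, 57581000 to 57664632, plus strand), the ligase at the end of the chain, was not called. The Alox15-/- replicates 1 to 4 had 6.25, 9.18, 7.90 and 8.01 CPM and the WT replicates 1 to 4 had 6.71, 8.28, 8.63 and 6.47 CPM. Only Alox15-/- replicate 2 lay above the highest WT library, and the lowest library of all was also an Alox15-/- one. The means were 7.84 ± 1.21 and 7.52 ± 1.09 CPM (SD, n = 4 each), with a log2 fold change of 0.045 (SE 0.202, adjusted p = 0.977 by edgeR). The 95% interval of the fold ran from 0.766 to 1.39, so that a fold as large as those of Isg15, Usp18 or Ube2l6 lay outside it. The 2 genes that overlap Herc6, Gm45193 and Gm19244, do not reach its 3′ end.

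**Figure D2:**
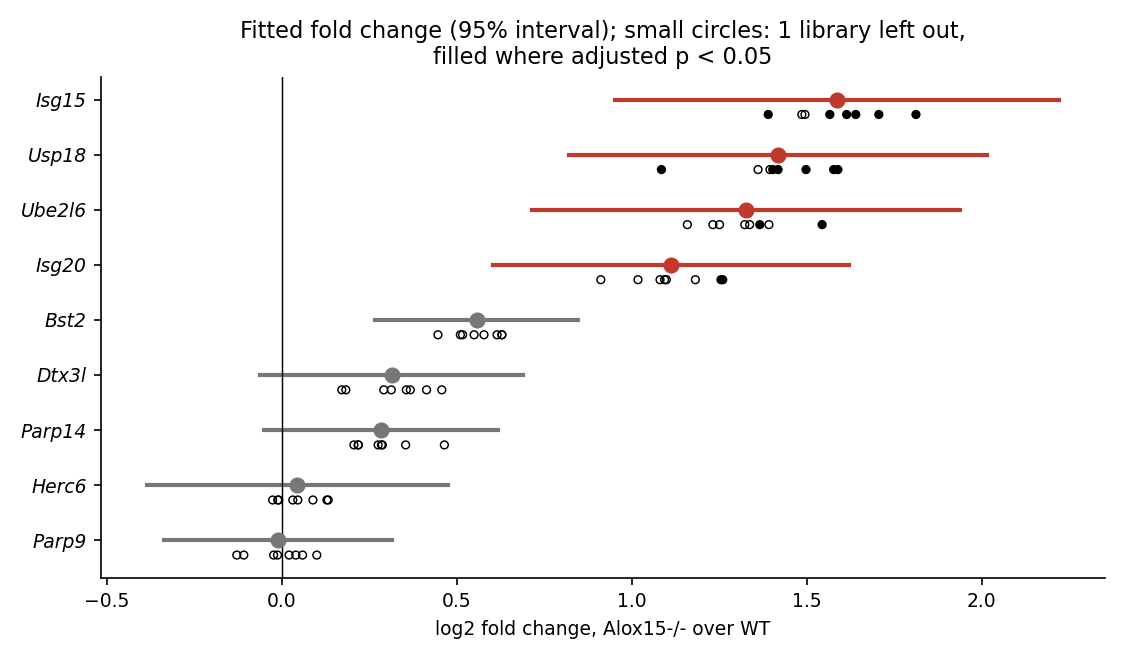
Fitted log2 fold change (horizontal axis, Alox15-/- over WT) of the 9 tested members, with 95% intervals, red where the adjusted p was under 0.05, and small circles for the 8 fits that each left out 1 library, filled where the gene still passed. Isg15 and Usp18 passed in 6 of the 8 fits, Ube2l6 and Isg20 in 2, and the others in none.

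The Parp9 group gave levels that overlapped between the genotypes throughout. Parp9 and Dtx3l, which lie head to head on chromosome 16 with starts 681 bases apart and overlap by 682 bases, encode the partners of one complex, and Parp14 begins the same cluster with 54966 bases between it and Dtx3l. Parp9 (ENSMUSG00000022906.15, 35938470 to 35972605, plus strand) had 49.98, 58.9, 42.1 and 43.8 CPM in Alox15-/- replicates 1 to 4 and 51.8, 48.4, 58.5 and 35.1 CPM in WT replicates 1 to 4. The highest values of both groups were nearly equal and the lowest was WT replicate 4. The means of 48.7 ± 7.57 and 48.4 ± 9.85 CPM (SD, n = 4 each) gave a log2 fold change of -0.0098 (SE 0.153, adjusted p = 0.996 by edgeR), with a fold between 0.793 and 1.24 at 95%. The sign of this value turned with the scaling and with the library left out, from -0.13 to 0.10. The gene Gm15564 on the other strand covers the 3′ end of Parp9 and had more counts than it (590 to 1212 in Alox15-/- and 908 to 1818 in WT, log2 fold change -0.15, adjusted p = 0.751).

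Dtx3l (ENSMUSG00000049502.17, 35926511 to 35939151, minus strand), the ubiquitin ligase of the complex, had 90.6, 114.7, 83.7 and 72.0 CPM in Alox15-/- replicates 1 to 4. In WT replicates 1 to 4 it had 68.5, 79.8, 91.0 and 47.8 CPM. Alox15-/- replicate 2 was above every WT library, WT replicates 1 and 4 were below every Alox15-/- library, and the remaining libraries intermingled. The means were 90.3 ± 18.03 and 71.8 ± 18.4 CPM (SD, n = 4 each), and the log2 fold change of 0.32 (SE 0.176, 95% interval -0.06 to 0.69, adjusted p = 0.724 by edgeR) did not pass.

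Parp14 (ENSMUSG00000034422.14, 35832874 to 35871544, minus strand), an ADP-ribosyltransferase, had 40.1, 35.1, 30.5 and 34.9 CPM in Alox15-/- replicates 1 to 4 and 28.2, 24.7, 37.8 and 23.4 CPM in WT replicates 1 to 4. WT replicate 3 lay among the Alox15-/- libraries and the other WT libraries below them. The means were 35.2 ± 3.94 and 28.5 ± 6.53 CPM (SD, n = 4 each), and the log2 fold change of 0.28 (SE 0.157, 95% interval -0.05 to 0.62, adjusted p = 0.720 by edgeR) did not pass.

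Isg20 (ENSMUSG00000039236.18, chromosome 7, 78913424 to 78920396, plus strand), an interferon-induced exonuclease acting on viral RNA, had 13.7, 18.9, 11.5 and 9.45 CPM in Alox15-/- replicates 1 to 4. The WT replicates 1 to 4 had 4.83, 5.89, 5.72 and 8.14 CPM. The lowest Alox15-/- library, replicate 4, stood a little above the highest WT library, also replicate 4. The means were 13.4 ± 4.07 and 6.15 ± 1.41 CPM (SD, n = 4 each), a 2.16-fold difference (log2 fold change 1.11, SE 0.239, adjusted p = 0.0284 by edgeR). The adjusted p was 0.101, 0.136 and 0.0690 without Alox15-/- replicate 1, 2 or 3 and 0.130, 0.104 and 0.0817 without WT replicate 1, 2 or 3, with a log2 fold change of at least 0.91 in every fit that left out a library.

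Bst2 (ENSMUSG00000046718.8, chromosome 8, 71534255 to 71537456, minus strand), the tetherin gene whose upstream stretch is printed above, had 81.5, 93.7, 92.7 and 72.7 CPM in Alox15-/- replicates 1 to 4. In WT replicates 1 to 4 it had 66.3, 64.7, 44.3 and 56.4 CPM. The groups did not overlap, the nearest libraries being Alox15-/- replicate 4 and WT replicate 1. The means were 85.1 ± 9.98 and 57.9 ± 10.04 CPM (SD, n = 4 each), with a log2 fold change of 0.56 (SE 0.136, 95% interval 0.27 to 0.85) and an adjusted p of 0.0673 by edgeR, above the threshold. The gene passed in 4 of 9 other settings, among them DESeq2 (adjusted p = 0.0164), and in none of the 8 fits that left out a library.

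To set the members against each other without any scaling between libraries, the log2 ratio of 2 members' counts was taken within each library (0.5 added to each count) and compared by a two-sided exact permutation test, for which 4 against 4 allows no p below 0.0286. Isg15 over its protease Usp18 was -1.05 ± 0.304 in Alox15-/- and -1.28 ± 0.490 in WT (SD, n = 4 each; exact permutation p = 0.457, also after adjustment over the 4 pairs). Isg15 over Ube2l6 differed by 0.28 on the log2 scale (exact permutation p = 0.4, adjusted p = 0.457). For both pairs the ratios of the groups overlapped, which does not show that they were equal. Parp9 over Dtx3l, the partners of one complex, was -0.88 ± 0.124 in Alox15-/- and -0.55 ± 0.152 in WT (SD, n = 4 each; exact permutation p = 0.0571, adjusted p = 0.171), and Parp14 over Parp9 differed by 0.30 (exact permutation p = 0.0857, adjusted p = 0.171).

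A further 2 ratios were added after the values of single members had been seen, and serve as a description of the split between the members. Isg15 over Herc6 was -0.24, 0.20, -0.18 and -0.28 in Alox15-/- replicates 1 to 4 and -1.80, -2.07, -1.88 and -0.77 in WT replicates 1 to 4. All Alox15-/- ratios lay above all WT ratios, with a difference of 1.5 on the log2 scale (exact permutation p = 0.0286, and 0.114 after adjustment over the 6 ratios). Isg15 over Parp9 differed by 1.54 on the log2 scale (exact permutation p = 0.0571, and 0.114 after adjustment over the 6 ratios). Here the groups overlapped, since WT replicate 4, with -3.19, lay above Alox15-/- replicate 1, with -3.21.

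The wider families were described by 6 lists with 63 genes, all of which passed the filter on low values. Only 1 of the 63 passed the test, the interferon regulatory factor Irf7, and it was higher in Alox15-/-, beside 1.24% of all tested genes called. The median log2 fold change of the 63 genes was -0.027, beside -0.0073 over all tested genes, and 27 of the 63 had a value above 0.

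Irf7, which drives the later wave of interferon-stimulated transcription, had 12.3, 13.0, 9.78 and 8.87 CPM in Alox15-/- replicates 1 to 4. The WT replicates 1 to 4 had 3.28, 2.87, 6.12 and 5.64 CPM. The groups did not overlap, and the means of 10.97 ± 1.95 and 4.48 ± 1.64 CPM (SD, n = 4 each) gave a log2 fold change of 1.26 (SE 0.260, adjusted p = 0.0226 by edgeR). Without Alox15-/- replicate 1, 2 or 3 the adjusted p was 0.0946, 0.0961 and 0.0609, and without WT replicate 1 or 2 it was 0.103 and 0.0848. Phrf1 overlaps Irf7 on the other strand. Irf1, another factor of this family, had a log2 fold change of 0.35 (adjusted p = 0.636) and was not called.

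Among 16 partners of ISG15 and Usp18 none passed, with a median log2 fold change of -0.061 and 5 above 0. The values ran from -0.32 for Itgal and -0.27 for Itgb2, the chains of the LFA-1 integrin, to 0.27 for Usp21 and 0.36 for Skp2, a subunit of a ubiquitin ligase known to act on Usp18. Trim25, a ligase that itself carries ISG15, and Ifnar2, the receptor chain that Usp18 binds, had 0.085 and -0.017. None of 10 relatives of the activating and conjugating enzymes passed either (median -0.041). The log2 fold change was -0.23 for the ubiquitin-activating enzyme Uba1, -0.18 for Nae1, and 0.025 for Ube2l3, a close relative of Ube2l6.

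Of the 14 other PARP family genes none passed (median 0.076, 8 above 0). Parp12, another interferon-stimulated member, had the highest log2 fold change, 0.92 (adjusted p = 0.434), followed by Tiparp with 0.53 (adjusted p = 0.359), and Parp2 and Tnks2 had the lowest, -0.17 and -0.15. In Parp12 every Alox15-/- library lay above every WT library, at low means of 3.58 and 1.78 CPM. Of the lists before this one, Usp5, Itgal, Itgb2 and Uba1 had every Alox15-/- library below every WT library. The 10 Deltex genes and ADP-ribose hydrolases gave a median of 0.049 and no call, from -0.36 for Dtx2 and -0.25 for Parg to 0.42 for Dtx1 and 0.45 for Dtx4. The 9 relatives of Isg20 and other exonucleases gave a median of -0.059 and no call, from -0.24 for Isg20l2 and -0.21 for Eri1 to 0.022 for Aen and 0.10 for Rexo2.

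**Figure D3:**
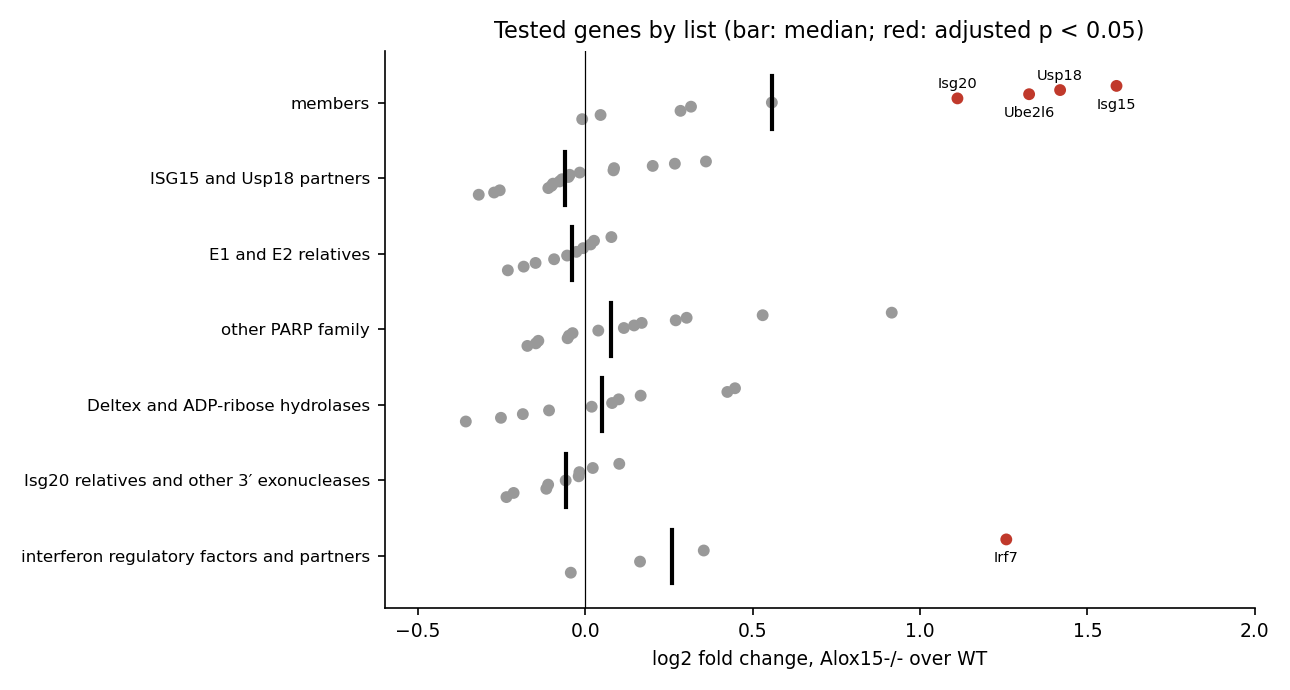
Log2 fold change (horizontal axis, Alox15-/- over WT) of each tested gene, by list on the vertical axis, with the median of each list as a bar and genes with an adjusted p under 0.05 in red. Outside the members the only red point is Irf7, and the medians of the first 5 lists below the members lie between -0.061 and 0.076.

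Genes near the members on the chromosomes were counted in the same fit. Of 76 other tested genes that start within 250 kb of a member's start, 1 passed (1.24% over all tested genes), and their median log2 fold change was -0.039. For Isg15 there were 10 such genes, with values from -0.62 to 0.17 and none called. For the Parp9 cluster there were 8, from -0.36 to 0.24 and none called, the exception being Kpna1, which passed when WT replicate 3 was left out and brought the count of 76 to 2. The gene that passed was Prg2, 181.6 kb from Ube2l6, with a log2 fold change of 3.7 (adjusted p = 6.72e-05). Prg2 codes for the major basic protein of eosinophils and is one of the eosinophil markers given below.

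**Figure D4:**
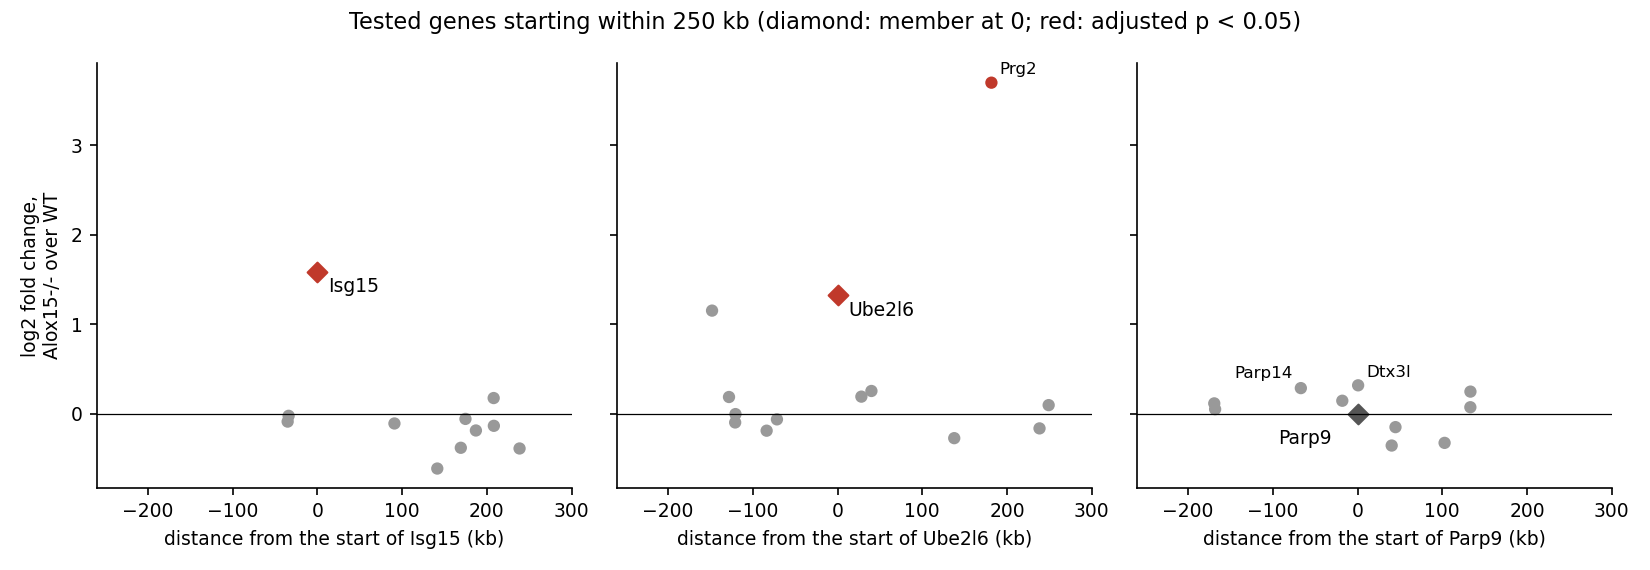
Log2 fold change (vertical axis, Alox15-/- over WT) of tested genes by the distance of their start from that of Isg15, Ube2l6 or Parp9 (horizontal axis, kb, positive in the direction of transcription of the member), with the member as a diamond at 0 and red where the adjusted p was under 0.05. Isg15 and Ube2l6 stand above most neighbours, and Prg2 at 3.7 is the only other red point.

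The genes nearest to Isg15 in their profile over the 8 libraries were sought by the root mean square difference of the centred log2 CPM. Members aside, they were Adamtsl4 (0.268), Cxxc5 (0.280), the mast cell protease gene Cpa3 (0.284), the deubiquitinase gene Usp2 (0.309) and Irf7 (0.339). Among the members Isg20 (0.312), Usp18 (0.343) and Ube2l6 (0.395) were near to Isg15, Bst2 was farther (0.600), and Herc6 (0.788) and Parp9 (0.859) were far. The genes nearest to Parp9 were Celf2 (0.0459), Mfap1a (0.0676), Fkbp5 (0.0748), Atp11b (0.0773) and G2e3 (0.0782), with log2 fold changes between -0.13 and 0.052. Centring was on the mean of the 8 libraries, which keeps the difference between the groups. These distances therefore largely restate the fold changes and are no separate evidence.

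Marker genes of other cells moved with the labels too. Every Alox15-/- library lay above every WT library in the summed level of 5 lists: erythroid markers (903 to 3473 CPM in Alox15-/-, 33.7 to 122 in WT), mast cell and basophil markers (139 to 347 against 59.3 to 84.8), eosinophil markers (21.3 to 78.0 against 1.25 to 6.68), myeloid markers (48.2 to 329 against 11.1 to 19.4), and markers of NK and γδ T cells (106 to 203 against 58.0 to 70.8). For each of the 5 the two-sided exact permutation p was 0.0286, the smallest that 4 against 4 allows, and 0.0629 after adjustment over the 11 lists. Of the single genes tested, 5 of 5 erythroid markers, 7 of 8 mast cell and basophil, 2 of 2 eosinophil, 5 of 6 myeloid and 4 of 7 NK and γδ T cell markers passed as higher, beside 1.05% of all tested genes. The 4 in the last list were the γδ T cell receptor genes Trdc, Tcrg-C1, Tcrg-C2 and Tcrg-C4, and none of its NK genes passed. Since the lists were chosen with earlier results of these data known, these p-values and shares are a description and no independent evidence. The shares also rest on the filter, which some genes passed only through the Alox15-/- libraries. Among these were Alas2, S100a9, Ms4a2 and Cd200r3, with at most 1.10, 0.936, 1.25 and 1.88 CPM in WT. Of the eosinophil markers 7 were listed and 2 tested, and of the myeloid markers 10 were listed and 6 tested. The cells had been isolated by negative selection for naive CD4+ T cells, a step meant to remove such cells. In bulk libraries a change in the number of cells of a kind and a change in the RNA per cell cannot be told apart, and the part of these cells in the differences of Isg15, Usp18, Ube2l6, Isg20 and Irf7 was not tested.

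Markers of plasmacytoid dendritic cells, the strongest makers of type I interferon, did not separate the groups: 5 of 7 were listed, with summed levels of 46.3 to 64.9 CPM in Alox15-/- and 53.2 to 59.3 CPM in WT (exact permutation p = 0.686, adjusted p = 0.754), and none was called. This sum rests mostly on Ccr9 and Pacsin1, and only 3 of the genes were tested. B cell markers (212 to 309 against 211 to 302 CPM, exact permutation p = 0.971), classical dendritic cell markers (3.29 to 6.75 against 2.91 to 4.46 CPM, exact permutation p = 0.4) and CD8 T cell markers (12.02 to 21.8 against 21.3 to 31.6 CPM, exact permutation p = 0.0857) overlapped between the groups, and 1 B cell marker passed as lower. Plasma cell markers overlapped as well (11.6 to 24.3 against 7.80 to 12.7 CPM, exact permutation p = 0.0571), and their gene Igha passed with a log2 fold change of 1.03. No listed marker was at 0 in all libraries.

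Within the Alox15-/- group the order of the libraries was set beside that of the markers. Replicate 2 was the highest of the 4 for 7 of the 9 tested members and for 4 of the 5 raised marker lists. Replicate 4 was the lowest for Ube2l6, Dtx3l, Isg20 and Bst2 and for all 5 raised lists, whereas replicate 1 was the lowest for Isg15, Usp18 and Herc6, and replicate 3 for Parp9 and Parp14. In replicate 4 Isg15, Usp18, Ube2l6, Isg20 and Bst2 lay above every WT library, and so did the sums of all 5 raised lists. With replicate 4 left out, the same 4 members passed as with all libraries, with replicate 1 or with replicate 2 left out Isg15 and Usp18 did, and with replicate 3 left out only Isg15 did.

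**Figure D5:**
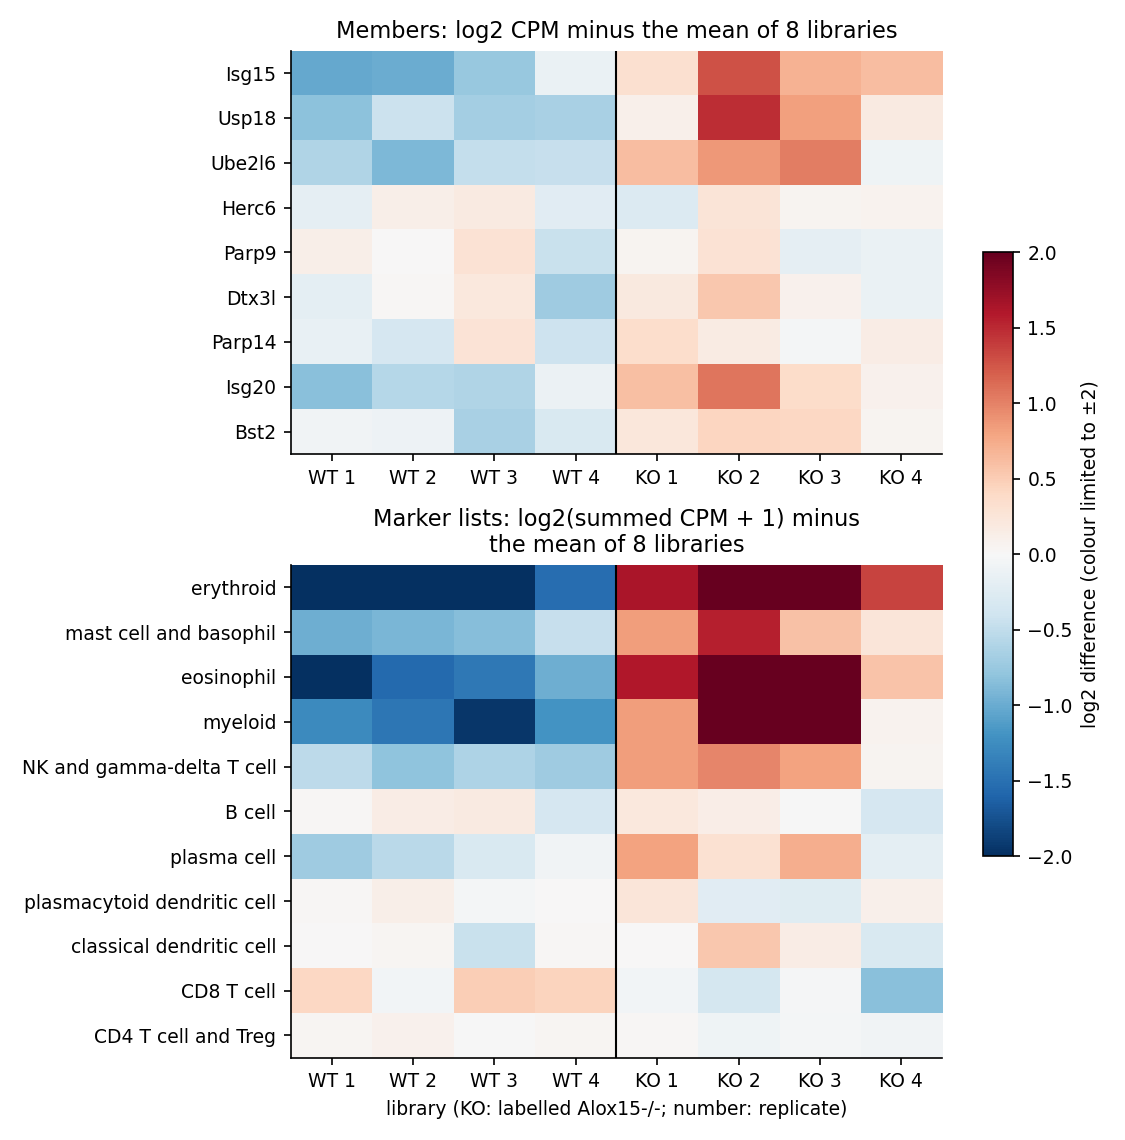
Log2 level of each tested member (top, CPM) and of each marker list (bottom, summed CPM + 1) in each library, less the mean of the 8 libraries, from blue (lower) to red (higher), with colour limited at ±2; WT and Alox15-/- (KO) replicates 1 to 4 lie left and right of the line. Replicate 2 of Alox15-/- is the reddest column for Isg15, Usp18 and Isg20, and Herc6, Parp9 and the plasmacytoid dendritic cell list show no split at the line.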

How the data were processed

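The authors prepared MACE-seq libraries, 4 labelled Alox15-/- and 4 labelled WT, and deposited raw counts of tags per gene symbol. Their processing notes name Bowtie, edgeR and GRCm38; the counting tool, its strand setting and the annotation are not given in the sources used here, and the methods and the labels name different library kits. The design text names 4 mice of each genotype, and the libraries were taken as 1 for each mouse. The members and gene lists were chosen with earlier results of these data known.

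Counts were scaled by TMM, filtered (at least 2 CPM in at least 4 libraries) and tested with the quasi-likelihood test of edgeR 4.0.16 in R 4.3.3 on group alone, two-sided, adjusted by Benjamini-Hochberg over 12700 genes. The threshold was 0.05 and the common biological coefficient of variation 14.5%. Genes named were all members, listed genes past the threshold, the 2 highest and 2 lowest of each list, Alox15, the 5 nearest profiles to Isg15 and to Parp9, and neighbours past the threshold; some listed genes that this rule would name are not reported here, and further genes and all markers named were picked after their values were seen. Of the symbols, 26 had turned into dates and 2 were duplicated. On simulated counts of the 12700 genes, 96.5% of 200 genes changed by 1.5 on the log2 scale were recovered, and 6.31% of the calls were false. Positions are from GENCODE M21 and promoters from RefSeq. Similar 3′ ends were sought with blastn 2.17.0 (at least 90% identity over 100 bases of the last 500). Alternatives were other scalings, filters, DESeq2 1.42.0, limma 3.58.1, a robust fit, a replicate block and leaving out each library. No 2 libraries of the same group agreed within sampling noise.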

Additional observations from a re-analysis of the deposited data

How the results depend on the processing

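The count of 4 members called stayed between 3 and 5 under the 9 other settings (scaling, filter, test and replicate block). Leaving out 1 library in turn moved it between 0 and 4: it was 0 without WT replicate 1, 1 without Alox15-/- replicate 3 or WT replicate 2, and 2 without Alox15-/- replicate 1 or 2 or WT replicate 3. The 1 pathway gene called, Irf7, was lost with the replicate block (0 called, adjusted p = 0.0519), and the count ran from 0 to 1 with a library left out. The count of neighbouring genes called was 0 where at least 10 counts in every library were asked for, since Prg2 was then not tested, and ran from 1 to 2 with a library left out. The sign of Parp9 turned with upper quartile scaling (0.018) and the replicate block (0.012), and with a library left out it ran from -0.13 to 0.10. Herc6 ran from -0.025 to 0.13 with a library left out, the B cell marker sum from -0.12 to 0.11 and that of plasmacytoid dendritic cells from -0.14 to 0.015, on the log2 scale. The cause of these shifts was not tested, and the smaller number of libraries was not told apart from the library left out. For the ratios, leaving out a library allows no p below 0.0571, nor does the block below 0.125.

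Same-numbered libraries of the 2 groups did not deviate together (correlations of -0.18 to 0.165), so the numbers do not pair the samples. The replicate block called 146 genes in place of 158, and 3 members, Isg20 dropping to an adjusted p of 0.0587. Over all genes, 388 were called with no filter on low counts, 100 with at least 10 counts in every library, 194 by DESeq2 and 86 to 173 with a library left out. With 12 to 46 counts of Isg15 in a library, folds below those seen here may not be detectable for genes as low as this.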
